A study of Sus scrofa with 4 samples.

Results

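Chemokine ligands are small secreted proteins that draw leukocytes into tissue along concentration gradients. Most CC ligands act on monocytes, lymphocytes and eosinophils, and CXC ligands such as CXCL2 act on neutrophils, while others such as CXCL12 and CCL21 are made without inflammation and position cells in tissues. In infarcted heart, CC and CXC ligands are known for bringing neutrophils and then monocytes into the damaged muscle. They signal through G protein-coupled receptors on the arriving cells and are held on proteoglycans of the matrix.

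The ligands described here are CCL2, CXCL2, CXCL14, CCL14, CCL21, CCL5, CCL8, CXCL12, CXCL16 and CXCL10, and every probe set that carries one of these symbols in the array annotation was taken. The genes were chosen from results of these same arrays, the ratios of myoblast over control, so these ratios are given as a description and are not evidence about chemokines as a class. Of the 10 genes, 9 were found, on 11 of the 24123 probe sets of the array. CXCL14 and CXCL12 have 2 probe sets each and the other 7 genes have 1. No probe set carries the symbol CXCL10, a ligand induced by interferon, and it is not analysed here.

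Heart tissue of Chinese Bama minipigs, females 4 months old according to the methods, was profiled after permanent ligation of the left circumflex coronary artery on 4 Affymetrix Porcine Genome Arrays, with 1 array for each zone, border or infarct, of tissue that received myoblasts and of control tissue. The grafted cells were male human skeletal myoblasts injected in DMEM under cyclosporin A, into the border zone by the methods and into both zones by the labels, and the arrays carry probes for pig transcripts. The labels call the control tissue untreated. The methods describe both a control treatment group that received DMEM and cyclosporin A and a myocardial infarction group that received neither, so the ratios may also hold a difference in injection and cyclosporin. How many minipigs stand behind an array, and when the tissue was taken, is not given in the sources used here. Each condition has a single array and no replicate, the spread between minipigs is unknown and no test was made. Values are MAS5 signals in linear units, and a probe set is called higher or lower at 2-fold, the threshold of the methods. The array medians lay between 137 and 142 units, and a signal under the median is called dim here. Dim probe sets were imprecise: between the control zones, 15.1% of the probe sets with mean signals of 32 to 128 units were 2-fold apart, against 1.14% from 128 to 512 units and 0.270% from 512 to 2048 units. For myoblast over control the same shares were 19.3%, 6.10% and 3.55% in the border zone. In the infarct zone they were 19.0%, 5.82% and 2.92%. The shares for myoblast over control may also hold differences between treatments or minipigs. Cardiomyocyte genes were bright on all 4 arrays, with troponin T (TNNT2) at 22651 to 34844 units. The 28S rRNA probe sets were lower on the myoblast arrays (0.538 to 0.641 times control). Actin signals were 16934 to 19037 units on a 3' end probe set. On a 5' end probe set they were 517 to 876 units, lowest in the infarct zone of control tissue. Another 5' end probe set had 666 to 780 units, lowest in the border zone of control tissue. The part of RNA quality in the ligand ratios was not tested.

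CCL2, CXCL2 and the brighter of the 2 CXCL14 probe sets were at least 2-fold higher with myoblasts in both zones, and CCL14 was at least 2-fold lower in both. CCL21 was higher in the border zone. CCL5, CCL8 and CXCL16 lay closer to control, with ratios above 1 in both zones, and CXCL12 hardly differed. In the border zone, 4 of the 11 probe sets were called higher and 1 lower, where 9.95% and 10.4% of all probe sets were. In the infarct zone, 4 were called higher and 1 lower, beside 10.5% and 9.58% of all probe sets. Counting only calls shared by the zones, 3 probe sets were higher and 1 was lower, against 2.91% and 2.81%. Since the genes were chosen on this contrast, nothing is read from the excess. Nor is anything read from both myoblast arrays lying on the same side of both controls. The share of all probe sets with that order was not counted. In bulk tissue, fewer or more cells of a type and less or more RNA per cell cannot be told apart.

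**Figure D1:**
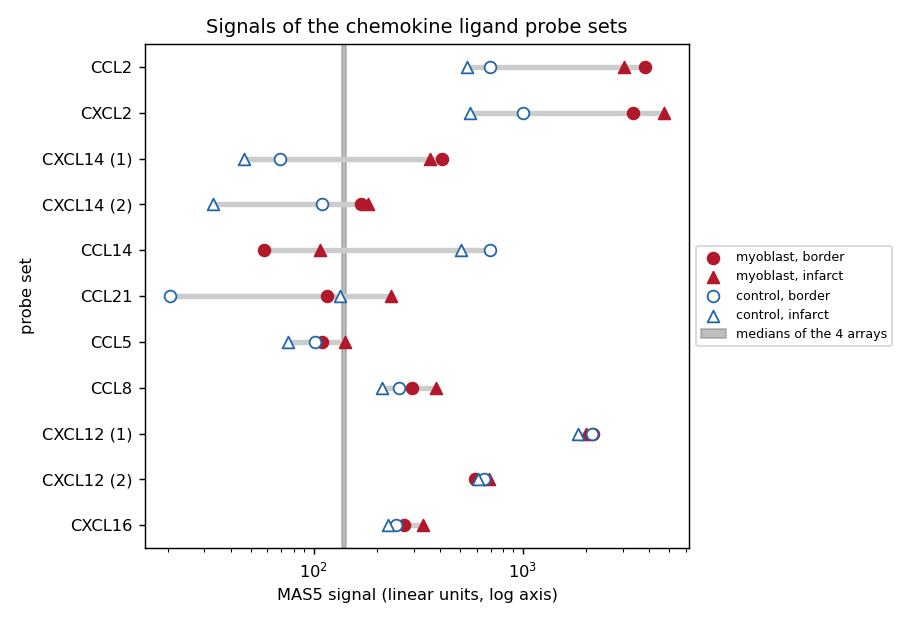
MAS5 signal (x axis, linear units on a log axis) of each chemokine ligand probe set (y axis) on the 4 arrays, with red symbols for myoblast and blue for control arrays, circles for border and triangles for infarct zone, and a grey band for the array medians. (1) and (2) number the brighter and the dimmer probe set of a gene. For CCL2, CXCL2, both CXCL14 probe sets, CCL5, CCL8 and CXCL16 the myoblast arrays lie above both control arrays, and for CCL14 below both.

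CCL2, also known as MCP-1, is the main attractant of monocytes carrying the receptor CCR2. Its signals were 3837 and 3041 with myoblasts in the border and infarct zones, and 695 and 540.0 in the same zones of control tissue. Both myoblast arrays lay well above both control arrays. The ratios of 5.52 (border zone) and 5.63 (infarct zone) were almost the same, and they ranked 27 and 41 from the top of 12735 and 12746 probe sets whose higher array exceeded its median.

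CXCL2, an attractant of neutrophils through CXCR2, had signals of 3369 and 4747 with myoblasts and 999 and 556 in controls. The myoblast arrays were again above both controls, but the zones were in opposite order in the 2 treatments. The ratio was 3.37 (border zone) and 8.53 (infarct zone), so its infarct zone ratio was 2.53 times that of the border zone.

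CXCL14, also called BRAK, is a ligand made constitutively by epithelia and connective tissue. On its brighter probe set the signals were 411 and 359 with myoblasts against 69.1 and 46.4 in controls. The myoblast arrays lay above the array median and the control arrays below it. The ratios were 5.95 and 7.73, but rest on dim control signals. Raising every signal below its array median to that median gave 2.96 and 2.62, still past 2-fold.
The dimmer CXCL14 probe set gave 168 and 182 with myoblasts and 109 and 32.8 in controls. It went the same way in both zones with ratios of 1.54 and 5.54, of which the infarct zone value alone passed 2-fold. The low control signal of the infarct zone sets that ratio, which was 1.33 with the same floor. The probe sets thus share a direction but differ in size, most in the border zone.

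CCL14, a CC ligand found in normal tissue and plasma that acts through CCR1, went the other way. Its signals were 57.6 and 107 with myoblasts and 696 and 504 in controls. Control arrays were above the array median and myoblast arrays below it, with no overlap. The ratios were 0.0827 and 0.212, ranked 10 and 39 from the bottom of the probe sets above the median in each zone. With the floor they were 0.200 and 0.281, still past 2-fold.

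CCL21 is made by lymphatic endothelium and lymph node stroma and guides cells that carry CCR7. Its signals were 115 and 233 with myoblasts and 20.5 and 133 in controls. One of the 4 signals, that of the infarct zone with myoblasts, exceeded its array median, and the border zone of control tissue stood apart as the lowest. The ratio was 5.61 (border zone) and 1.75 (infarct zone). Both border zone signals were dim. With signals raised to the 25th percentile of the array, which changed the control signal alone, the border zone ratio was 3.17, and with the floor at the median, which raised both, the log2 ratio was 0.0068.

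CCL5, or RANTES, is released by T cells and platelets and binds CCR1 and CCR3. It was dim on every array, at 109 and 140.3 with myoblasts and 102 and 75.3 in controls. The ratios were 1.08 and 1.86, below 2-fold in both zones. CCL8 (MCP-2), a close relative of CCL2, had signals of 296 and 384 with myoblasts and 255 and 213 in controls, all above the array medians. Its ratios were 1.16 and 1.81, well below those of CCL2.

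CXCL16 is a membrane-bound ligand and scavenger receptor of macrophages and endothelium, shed by ADAM10 and recognised by CXCR6. Its signals were 270.2 and 333 with myoblasts and 246 and 226 in controls, a narrow range above the array medians. The ratios were 1.10 and 1.47. CXCL12, or SDF-1, made by stromal cells, holds CXCR4-bearing progenitors and lymphocytes in tissue. Its brighter probe set had signals of 2160 and 1995 with myoblasts and 2132 and 1834 in controls, and the ratios were 1.01 and 1.09. The dimmer one had 587 and 688 against 653 and 607, with ratios of 0.899 and 1.13. The 4 arrays were thus close together on both CXCL12 probe sets, and the sign of the border zone difference was not the same on both.

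**Figure D2:**
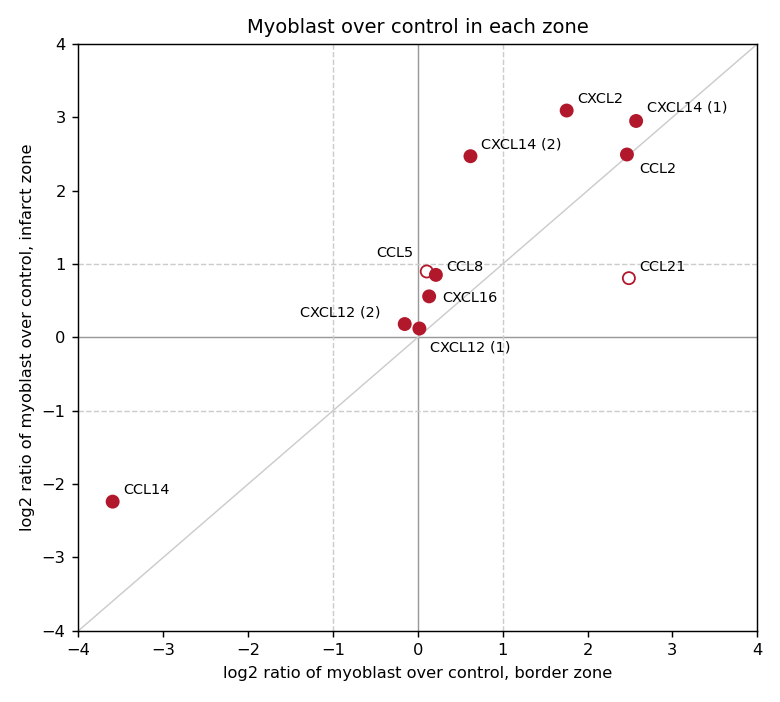
Log2 ratio of myoblast over control in the border zone (x axis) and the infarct zone (y axis) of each chemokine ligand probe set, with dashed lines at 2-fold and a diagonal of equal ratios. Filled points had a higher array above its median in both zones, open points did not. CCL2 lies on the diagonal, CXCL2 and CCL14 lie above it and CCL21 below it.

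Of the 11 ligand probe sets, 9 exceeded control in each zone and 1, CCL14, was under it in each, and these patterns were seen in 30.7% and 29.7% of all probe sets. The median log2 ratio of the ligand probe sets was 0.21 (border zone) and 0.85 (infarct zone), beside 0.0018 and 0.010 over all probe sets. In 10 of the 11 probe sets the infarct zone ratio was larger than that of the border zone, CCL21 being the exception, and 51.5% of all probe sets had that order. The CCL2 ratios were so close that quantile normalization or centring on array medians turned their order, leaving 9. Both zones of a treatment may come from the same minipigs, so the zones are not independent replicates.

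Between the zones of control tissue, no ligand probe set above the array median was at 2-fold. Infarct zone signals were below those of the border zone in 10 of 11 probe sets, with CCL21 as the exception. The ratio of infarct over border was 0.777 for CCL2, 0.557 for CXCL2, 0.671 for the brighter CXCL14 probe set, 0.725 for CCL14 and between 0.740 and 0.929 for CCL5, CCL8, CXCL16 and both CXCL12 probe sets. A single probe set, that of CCL21, was called higher in the infarct zone (6.48 times), where 8.95% of all probe sets were. A single one, the dimmer CXCL14 probe set, was called lower (0.300 times), where 8.25% were. Both calls rest on dim signals, and under the floor both ratios were 0.987.

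On the myoblast arrays, infarct zone signals were above those of the border zone in 8 of 11 probe sets. Of the 11, 7 were lower in the infarct zone of control tissue but higher in that of myoblast tissue, a pattern held by 24.3% of all probe sets. The difference of the zone ratios between treatments equals the difference of the myoblast over control ratios between zones. The genes were chosen on that contrast, so nothing is read from these counts. CXCL2 had 1.41 times the border zone signal in the infarct zone, CCL8 1.30 times and CXCL16 1.23 times. CCL14 had 1.86 times and CCL5 1.28 times, both 1.02 with the floor at the array median. CCL2 kept the order of the control zones (0.792 times), and so did the brighter probe sets of CXCL14 (0.872 times) and CXCL12 (0.923 times). CCL21 was called higher at 2.02 times, just past 2-fold, where 9.77% of all probe sets were, and no ligand was called lower, where 8.18% were. The CCL21 ratio was 1.99 with quantile normalization and with centring on array medians.

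**Figure D3:**
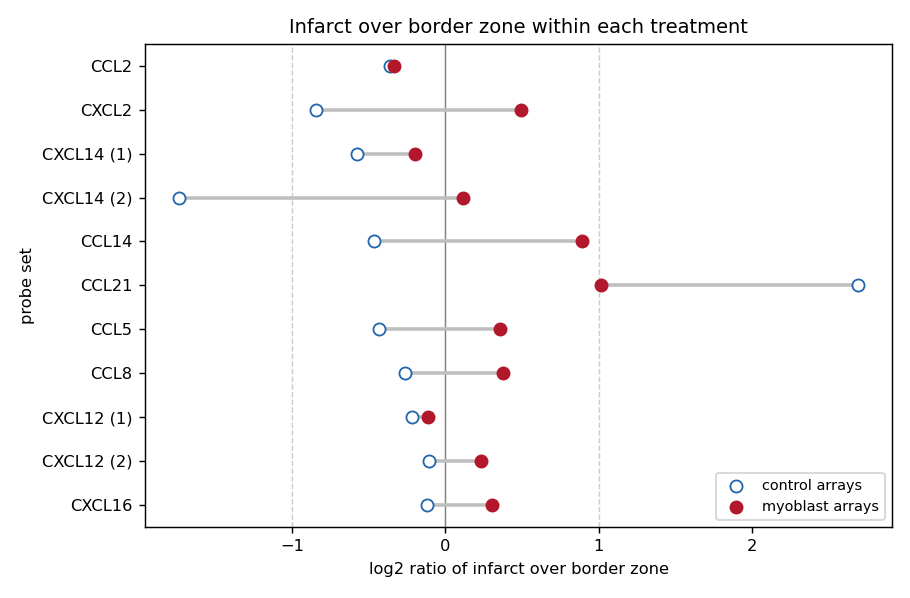
Log2 ratio of infarct over border zone (x axis) of each chemokine ligand probe set (y axis) on control arrays (open blue) and myoblast arrays (filled red), with dashed lines at 2-fold. Of the 11 probe sets, 10 are below 0 in controls, and CCL21 alone is above it. The same ratio is above 0 in 8 with myoblasts.

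Ligand genes that lie close together on the Sscrofa11.1 assembly could have unlike ratios. CCL14 and CCL5 are separated there by CCL16 alone among protein-coding genes, and had ratios of 0.0827 and 1.08 in the border zone. CCL8 and CCL2 are separated by CCL11 alone, and had 1.16 and 5.52.

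The remaining ligands of the system stood close to control where they were bright. The ligands described above were chosen on the ratios of myoblast over control. Nothing is therefore read from how the remaining ones compare with them. Of 12 other ligands measured, CCL4, CCL19, CCL24, AMCF-II and CXCL9 were above the array median on all 4 arrays, and none of these 5 was at 2-fold in either zone. CCL4 (MIP-1 beta), an attractant of monocytes and T cells, had signals of 380.0 and 478 against 326 and 319, with ratios of 1.17 and 1.50. CCL24 (eotaxin-2), an attractant of eosinophils, had 0.811 and 0.793. AMCF-II, a pig neutrophil attractant of the CXC family, had 1.24 and 1.28 on its brightest probe set and 3.01 and 2.39, and 16.9 and 3.71, on 2 dimmer ones. CXCL8 (interleukin 8), the best known neutrophil attractant, was dim on all arrays at 95.6 and 65.3 with myoblasts against 16.0 and 38.6. Its ratios were 5.97 and 1.69. Among the other CC ligands 2 of 7 were at least 2-fold higher in the border zone, CCL3L1 and CCL27, both dim, and none lower. In the infarct zone 1 (CCL25) was higher and 1 (CCL27) lower, both dim. Of 5 other CXC ligands, 1 (CXCL8) was higher in the border zone and 1 (PPBP) lower in the infarct zone. Among the brightest probe sets of all 6765 genes, 6.37% were higher and 5.71% lower in the border zone, against 6.44% and 5.69% for the infarct zone.

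Receptors for these ligands were mostly dim. CXCR4, the receptor of CXCL12, was the only one of 8 measured with all 4 signals above the array median: 948 and 1014 with myoblasts against 521 and 541 in controls. Both myoblast arrays lay above both controls at ratios of 1.82 and 1.87, under 2-fold, while its ligand had 1.01 and 1.09 on the brighter probe set. CCR1, which binds CCL5 and CCL14, had signals of 158 and 177 against 126 and 113, with ratios of 1.25 and 1.57. CCR2, the receptor of CCL2, was dim at 6.74 and 58.3 with myoblasts and 9.32 and 60.4 in controls, so its ratios of 0.723 and 0.965 rest on signals too low to be precise. CXCR6, the receptor of CXCL16, was dim with 39.9 and 39.8 against 66.8 and 63.4. CCR7, the receptor of CCL21, was dim too, with 36.6 and 3.86 against 20.5 and 19.3. In the border zone 1 receptor (CCR3) was called higher, and in the infarct zone 1 (CCR7) lower, both dim. CCRL2, an atypical receptor that presents rather than signals, had ratios of 0.970 and 1.43.

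**Figure D4:**
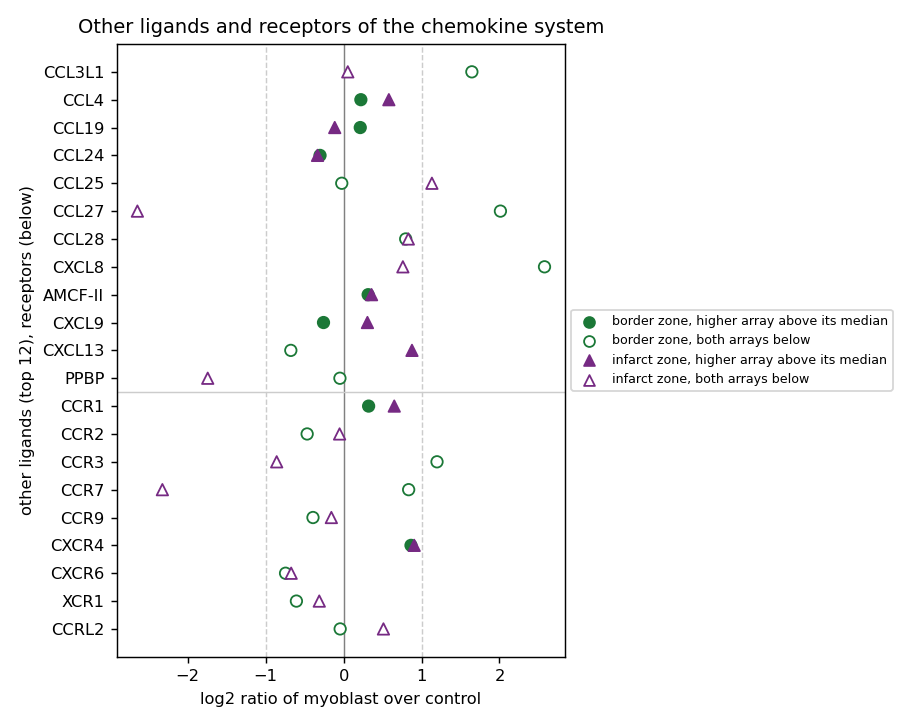
Myoblast over control log2 ratio (x axis) of 12 other ligands (top) and 9 receptors (below the line) by their brightest probe set (y axis), in the border zone (circles) and the infarct zone (triangles), with dashed lines at 2-fold. Filled symbols have a higher array above its median. All filled symbols lie inside the lines and CXCR4 is nearest to them.

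Among 16 proteases and proteoglycans that cut or hold chemokines, 6 were at least 2-fold higher in the border zone, 5 were in the infarct zone, and none was lower in either, beside 6.37% and 6.44% of all genes called higher. Of these calls, 4 (border zone) and 3 (infarct zone) were of genes dim on all arrays. Among the called genes were the aminopeptidase ANPEP (4.01 and 2.75 times), with 1 of its 4 signals above the array median, and ADAM10, which sheds CXCL16 (2.94 and 8.02 times), dim at 4.70 to 38.6. Of the brighter ones, MMP14, a membrane metalloproteinase, had ratios of 1.15 and 3.37 and the lysosomal protease CTSK 1.28 and 1.79. ADAM17, a sheddase, had 1.49 and 1.24 on its brightest probe set, but 0.569 and 0.224 on another with control signals above the array median, so its direction is not settled. HPSE, which cuts heparan sulfate, had 2.30 and 1.41 by the brightest of its probe sets. Other HPSE probe sets, all dim, gave from 0.569 to 4.40. DPP4, which trims and inactivates CXCL12, had 0.522 and 1.47. The proteoglycan VCAN had 1.47 and 0.627 by its brightest probe set. Other VCAN probe sets above the median on all arrays had 1.38 and 0.632, and 1.13 and 0.281, the last past 2-fold lower.
Among 23 genes that induce chemokine transcription, 3 were at least 2-fold higher and 2 lower in the border zone, and 5 higher and 2 lower in the infarct zone. The shares over all genes were 6.37% and 5.71% for the border zone and 6.44% and 5.69% for the infarct zone. All of the lower calls, and 2 and 3 of the higher ones, were of genes dim on all arrays. FOS, a subunit of the AP-1 factor, had signals of 11892 and 13583 against 6870 and 6443. TLR4, a receptor of damage signals, had 1.50 and 1.98 times control by the brightest of its 5 probe sets. The paper lists TLR4 as lower with myoblasts in its microarray comparison, which rests on the data used here and is not a separate measurement. The direction of TLR4 is therefore not settled. IRF1, an interferon response factor, had 1.24 and 1.25. TLR2 had 0.947 and 0.771. NFKBIA, the inhibitor of NF-κB that NF-κB itself induces, had 0.722 and 1.04. IL6 had 113 and 189 against 38.6 and 41.7, with 1 of its 4 signals above the array median. TNF, dim on all arrays, had 9.21 and 14.0 against 48.6 and 40.5. By Q-PCR the paper reports both IL6 and TNF as lower with myoblasts in these zones, so the direction of IL6 differs here.

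By a distance over the 4 log2 signals, each centred on its own mean, the single-symbol probe sets most like CCL2 were those of ACTG2, smooth muscle gamma actin (distance 0.285 log2 units), CXCL14 (0.334) and LOX, which crosslinks collagen (0.472). For CXCL2 they were LOX (0.596), CXCL14 (0.624) and FABP4, a fatty acid carrier (0.638), and for CXCL14 they were CCL2 (0.334), LOX (0.496) and ACTG2 (0.574). For CCL14 they were LOC100522375 on a pair of probe sets (0.408 and 0.612) and the nuclear receptor NR4A3 (0.436). With 4 arrays many probe sets share such a pattern, and the distances describe these arrays only.

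Markers of cells that make or answer these ligands also differed between the arrays. Of 13 macrophage and monocyte markers measured, 8 exceeded control in each zone and none was under it in each by the brightest probe set, beside 33.2% and 31.3% of all genes. Among these 8, FCER1G was level with control in the infarct zone (529.7 against 529.5). FCGR1A, also among them, was dim on all arrays, at 7.64 and 80.5 against 3.24 and 4.65. The summed signal was 8649 and 11611 with myoblasts against 6505 and 7661 in controls. The integrin ITGB2 had ratios of 2.36 and 1.55, VSIG4 1.85 and 1.48, C1QC 1.39 and 1.92 and TYROBP 1.88 and 1.32. Others did not share that direction throughout: CD163 had 0.792 and 1.39 on its brightest probe set and 0.218 and 0.316 on another bright one, and CD86 had 0.497 and 1.20. CD14 and ITGAM were dim on all arrays, and ITGAM had 3.25 and 0.668 on its brighter probe set and 0.234 and 1.58 on the other. All 5 neutrophil markers were dim on every array, and 2 of them exceeded control in each zone. S100A9 had 112 and 95.5 against 57.4 and 11.5, while S100A8 had 35.6 and 43.6 against 39.0 and 56.7. The list summed to 255 and 260.4 against 149 and 133. None of 11 T and NK cell markers was above the array median on all arrays, and their sums were 481 and 659 against 548 and 520.5.
Lymphatic endothelium was measured by LYVE1, at 149.8 and 213 against 148 and 141, and PDPN, at 2493 and 2369 against 1217 and 1100, and the sums of 2643 and 2582 against 1365 and 1241 were almost all PDPN, which is also a fibroblast marker. LYVE1 had ratios of 1.01 and 1.50. Of 10 vascular endothelium markers, 6 exceeded control in each zone and 1 was under it in each, beside 33.2% and 31.3% of all genes. CDH5 had ratios of 1.37 and 2.04, while PECAM1 had 0.860 and 1.12 and ENG 1.21 and 0.822 by their brightest probe sets. The sums of the list were 8271 and 10302 against 8032 and 7757. Of 8 fibroblast markers, 4 exceeded control in each zone and 1 was under it in each, with sums of 79939.8 and 49775 against 62082 and 61148. Among 10 cardiomyocyte markers 8 had ratios below 1 in both zones, while NPPA, a stress peptide, had 4.24 and 3.38. Their sums were 180510 and 191502 against 206438 and 239085. The sums of 6 smooth muscle and pericyte markers were 35241 and 36238 against 35717 and 35128.
Of 7 skeletal muscle markers, 6 were dim on every array. The myoblast regulators MYOD1 (7.64 and 5.09 against 45.3 and 34.1) and MYF5 (3.35 and 2.18 against 17.5 and 29.7) were dim and lower on the myoblast arrays. The other dim members had no common direction, such as MYH2 with ratios of 0.742 and 8.10 and TNNI2 with 3.19 and 0.0920, and the list summed to 582 and 412 against 663 and 826. Only NCAM1 was bright, at 0.921 and 0.453 times control by its brightest probe set and 1.79 and 0.851 on another bright one. The plasma cell chain JCHAIN had ratios of 1.61 and 5.91, but SDC1 of the same list had 0.791 and 0.816 and XBP1 1.15 and 0.914. Of the adipocyte genes FABP4 had 3.18 and 4.99 and LPL 0.455 and 0.729, and the median ratio of the 4 measured was 0.905 and 0.644. The dendritic marker CD83 had 1.66 and 1.26 and mesothelial KRT8 0.958 and 0.758. The part of these markers in the ligand ratios was not tested.

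**Figure D5:**
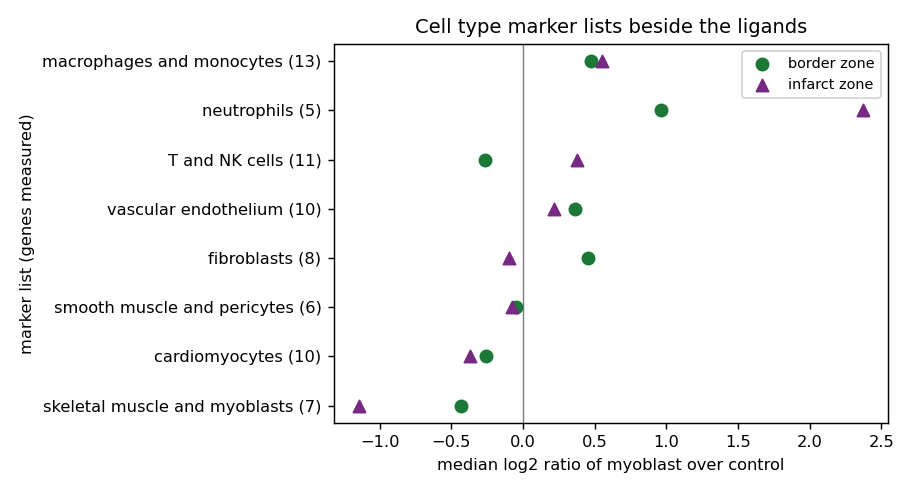
Median of the myoblast over control log2 ratios (x axis) in the border zone (circles) and infarct zone (triangles) of cell type marker lists with at least 5 genes measured (y axis, number in brackets). Macrophage markers lie at 0.47 and 0.55. The neutrophil markers, at 0.96 and 2.37, were all under the array medians.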

How the data were processed

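RNA of heart tissue was hybridised to Affymetrix Porcine Genome Arrays, 1 for each of 4 conditions. The authors deposited log2 values, made with MAS5 and Gene Spring software. MAS5 corrects for background and brings the trimmed mean of every array to the same level, which the linear signals show (about 500.1 units on each array with 2% trimmed at each end). They were used as deposited, all 24123 probe sets being kept and no column of per-array values left out. Symbols came from the platform annotation: 10099 probe sets had 1 symbol, 198 several and 13826 none. All 11 ligand probe sets matched the reference by gene ID with an unchanged symbol.

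Log2 signals were subtracted between single arrays: myoblast minus control in each zone, and infarct minus border zone in each treatment. With 1 array per condition, no test was made. Members and gene lists were chosen with earlier results of these data known. A list gene was measured by its brightest probe set over the 4 arrays. From each list, up to 4 genes could be named that had the largest mean ratio with the same direction in both zones and a higher array above its median, and for ligands past 2-fold in both zones the 3 nearest probe sets. CXCL8, CCL3L1, CCL25, CCL27, PPBP, CCL19, CXCL9, other receptors, ANPEP, ADAM10, DPP4, VCAN, NFKBIA, IL6, TNF, CD14, CD163, CD86, FCER1G, FCGR1A, ITGAM, S100A8, S100A9, PECAM1, ENG, XBP1, MYOD1, MYF5, MYH2 and TNNI2 are named outside this rule, chosen after their values were seen. Alternatives were quantile normalization, centring of each array on its median, a floor under the signals (the 25th percentile or the median of the array), a restriction to probe sets above the array median, a 4-fold threshold, and the brightest probe set or the mean over probe sets of a gene. The zone difference of the ratios under scaling and floors was added after seeing the data. Counting was tested on simulated data. Precision depends on signal and on the number of arrays. Python 3.11.15, pandas 2.3.3 and numpy 2.4.6 were used.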

Additional observations from a re-analysis of the deposited data

Results flagged for a closer look

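In 7 of the 11 ligand probe sets the infarct zone was below the border zone in control tissue and above it in myoblast tissue. This pattern was held by 24.3% of all probe sets. Each condition has 1 array and the difference was not tested. The genes were chosen on the ratios of myoblast over control, which hold the same difference, so nothing is read from the count. The log2 ratio of infarct over border zone with myoblasts exceeded that in controls by 1.85 on the dimmer CXCL14 probe set, by 1.36 for CCL14, by 1.34 for CXCL2, by 0.79 for CCL5, by 0.64 for CCL8, by 0.43 for CXCL16 and by 0.34 on the dimmer CXCL12 probe set. On the last of these, myoblast over control also had opposite directions in the zones (0.899 and 1.13 times), with the same difference of 0.34. Raising dim signals to the array median gave a difference of 0.13 for the dimmer CXCL14 probe set, 0.49 for CCL14 and 0.043 for CCL5. It left the differences of CXCL2, CCL8, CXCL16 and the dimmer CXCL12 probe set unchanged.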

How the results depend on the processing

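Each condition has 1 array, so nothing could be left out and no spread between minipigs enters any value. Quantile normalization, centring on array medians and the floor at the 25th percentile left 43, 43 and 44 of the 44 ligand ratios (11 probe sets in 4 contrasts) on the same side of 1 and of 2-fold. The exception was CCL21 in the infarct over the border zone with myoblasts, so that the count of ligand probe sets called higher there was 0 in place of 1 with quantile normalization and with centring. With the floor at the array median 39 of the 44 ratios kept their side, the count was 0 there too, and in the zones of control tissue 0 were higher and 0 lower, as over probe sets above the array median. The log2 ratio of CCL21 between the control zones was then -0.019 in place of 2.70, and the zone difference of its myoblast contrast, an alternative chosen after seeing the data, 0.76 in place of -1.68. At 4-fold, 0 were lower between the control zones, 0 higher between the myoblast zones and 2 higher with myoblasts in both zones. By the brightest probe set of each gene 0 were lower between the control zones. The calls of CCL2, CXCL2, the brighter CXCL14 probe set and CCL14 with myoblasts stood in both zones under the 4 alternatives of scaling and floor. The infarct zone ratio exceeded that of the border zone in 10 of 11 ligand probe sets, and in 9 with quantile normalization or centring. Signals under the array median limit what can be said of CCL5, CCL21 and most receptors.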
